A study of Mus musculus with 16 samples.

Results

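The nuclear genes that encode subunits of respiratory complexes II to V were followed in epididymal white fat of obese mice. The members were all probes whose gene symbol named a subunit of succinate dehydrogenase (Sdha to Sdhd), the cytochrome bc1 complex (Uqcr genes and Cyc1), cytochrome c (Cycs), cytochrome c oxidase (Cox4 to Cox8 genes) or ATP synthase (Atp5 genes). Where a gene had several probes, the brightest over all 16 arrays stood for it. This gave 57 probes of 47 genes, out of 25697 probes of 16593 genes on the array; Sdha was not analysed here. By complex these were 3 genes of complex II, 10 of complex III with cytochrome c, 18 of complex IV and 16 of complex V.

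The respiratory chain passes electrons from reduced cofactors to oxygen and pumps protons across the inner mitochondrial membrane. Complex II takes electrons from succinate, complex III hands them to cytochrome c, and complex IV gives them to oxygen. Complex V, the ATP synthase, lets the protons flow back and makes ATP. White adipocytes hold fewer mitochondria than brown or beige ones, and rosiglitazone, an agonist of the adipocyte nuclear receptor PPARG, is known to raise mitochondrial gene expression in fat.

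The arrays were single-colour Illumina bead arrays. The 4 groups were wild-type (WT) mice given vehicle, WT mice given rosiglitazone, and mice lacking Fgf21 (Fgf21-KO), the gene of a hormone made by liver and fat, given either treatment. The sample titles give a mixed c57b6/sv129 background for the WT mice and name none for the Fgf21-KO mice. All mice were 4 to 5 months old and obese after 10 weeks of high-fat diet. Rosiglitazone was given at 10 mg/kg over the last 2 weeks. Each group had 2 pools of RNA from 2 mice, and each pool was run on 2 arrays, so n was 2 pools per group throughout. How the knockout allele was made and in which cells it is lost are not given in the sources used here.

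The median signal of an array lay between 144.9 and 192.3, and the number of arrays and pools limits the precision. Adipocyte transcripts were bright everywhere, with Adipoq signals of 30244 to 51506 and Cidec signals of 35785 to 55889. Fgf21 itself was detected on all 4 arrays of each WT group and on 1 of 4 arrays of each Fgf21-KO group. One pool, WT rosiglitazone replicate 1, stood apart on the first principal component of all genes, at 68.5 against values of -16.85 to -0.298 in the other 7 pools. In that pool the 9 tested smooth muscle markers had a median 2.06 above their mean over all pools (log2). The 7 tested epididymis and epithelium markers had one 1.47 above. Of the 14 markers of that list on the array, Defb1, Lcn5, Gpx5, Adam7 and Ovch2 were detected on no array. The 10 tested liver markers were high in Fgf21-KO vehicle replicate 2, with a median of 2.69. Of the 13 liver markers on the array, Alb, Fgb and Tat were detected on no array. Member medians for the drug in each genotype, for genotype under rosiglitazone and for the interaction are also given with pools left out. Values of single genes, of other lists and of averaged contrasts are with all pools unless stated.

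Of the 47 members, 42 passed the detection filter (4 or more of the 16 arrays with a detection p up to 0.05) and were tested: all 3 of complex II, 8 of 10 of complex III with cytochrome c, 16 of 18 of complex IV and 15 of 16 of complex V. The 5 that did not pass were Uqcrfs1, the Rieske iron-sulfur protein, with detection on 2 of 16 arrays, and Uqcrq, Cox7b2, Cox8c and Atp5k, with detection on 0 of 16. Uqcrq and Atp5k encode structural subunits of complexes III and V, so a dim probe is not a measure of how much transcript was there. Cox7b2 and Cox8c are known as testis isoforms. All values below are background-corrected, quantile-normalised log2 intensities, and levels of different probes are not compared with each other.

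Spread between pools was smaller over the members than over all genes. The median SD between the 2 pools of a group was 0.12 over the members and 0.19 over all 9542 genes tested. By group it was 0.09 (WT, vehicle), 0.17 (WT, drug), 0.05 (Fgf21-KO, vehicle) and 0.07 (Fgf21-KO, drug). The WT rosiglitazone pools were the pair that differed most, as they were over all genes (0.22).

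**Figure D1:**
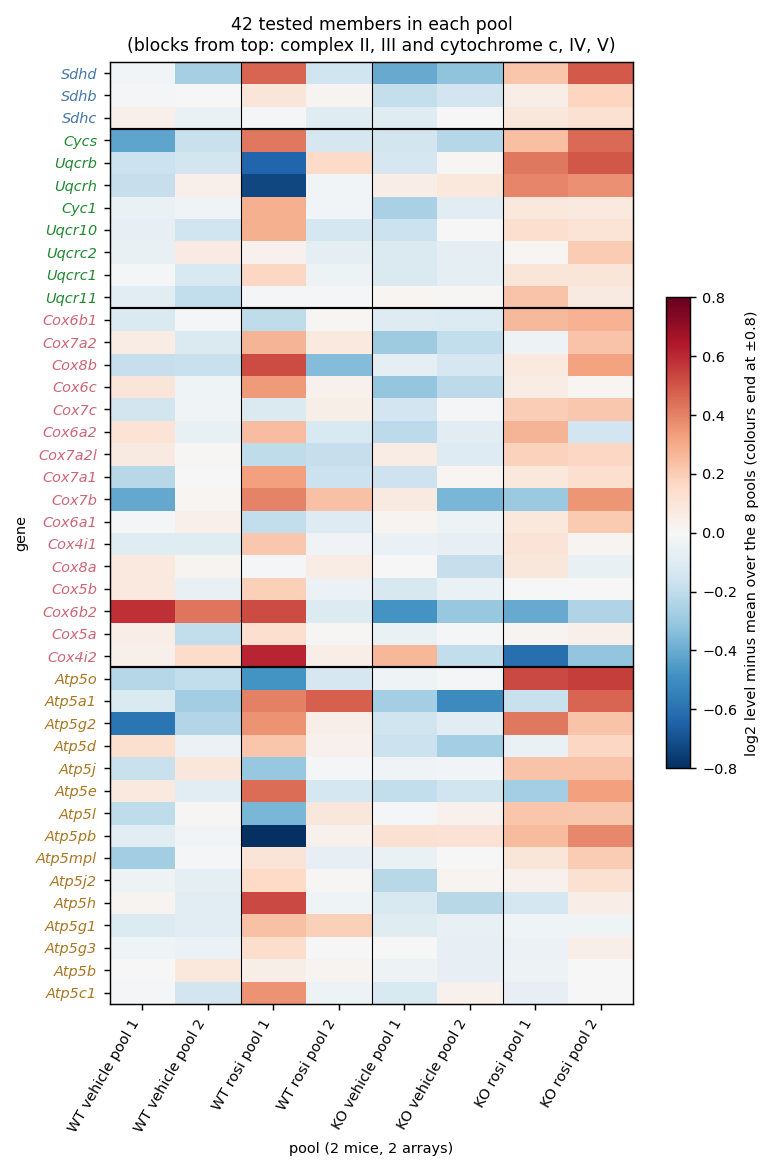
Log2 level of each of the 42 tested members (rows, coloured by complex) in each of the 8 pools (columns), minus the member's mean over all pools; red is above and blue below that mean. Both Fgf21-KO rosiglitazone columns are mostly red, with 30 and 35 of 42 members above their mean, while WT rosiglitazone pool 1 holds dark blue cells for Uqcrh, Uqcrb and Atp5pb beside dark red ones for Cox8b and Atp5h.

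The first comparison concerned the response to rosiglitazone in mice without Fgf21. In Fgf21-KO fat, 41 of 42 members were higher with the drug than with vehicle, against 49% of all genes tested. For 32 of the 42 both treated pools lay above both vehicle pools, where 22.2% of all genes did so. The median difference over the members was 0.20 (log2), with quartiles at 0.13 and 0.30, and over all genes it was -0.00. The differences were small for each gene, and 0 of 42 members passed limma's adjusted p of 0.05, as did 0% of all probes. At an unadjusted p under 0.05 there were 5 higher members and 0 lower ones, against 2.64% and 3.07% of all genes. Markers of some other cells were lower in the treated pools: 8 of 8 of mesothelium (median -0.69, with treated replicate 2 at -1.04 from its mean), 9 of 10 of liver (median -1.48), 6 of 7 of epididymis and epithelium (median -0.46) and 5 of 6 of macrophages (median -0.13). The summed signal of the mesothelial markers ran from 5161 to 7278 over the 4 vehicle arrays and from 2884 to 5825 over the 4 treated ones. Krt19, at -0.83, counts in both the mesothelium and the epithelium list. Mast cell markers were higher for 6 of 6 (median 0.23) and those of endothelium for 5 of 7 (median 0.01). The part of all these cells in the members' values was not tested.

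Complex II carried the largest single difference. Sdhd, one of the membrane anchors that hold succinate dehydrogenase in the inner membrane, stood at 7.70 and 7.78 in the Fgf21-KO vehicle pools and at 8.32 and 8.59 in the treated ones. In WT its values were 8.08 and 7.84 with vehicle and 8.57 and 7.94 with the drug. The treated Fgf21-KO pools thus lay above all vehicle pools of both genotypes, whereas the WT treated pools overlapped the WT vehicle pools. The Fgf21-KO difference was 0.72 (SE 0.23), a 1.65-fold ratio, with limma adjusted p = 0.8267. Sdhb, the iron-sulfur subunit, was at 11.38 and 11.41 with vehicle and 11.62 and 11.74 with the drug in Fgf21-KO, a difference of 0.29 (SE 0.12, limma adjusted p = 0.8881). For Sdhc, the other anchor, the difference was 0.16 (SE 0.12). All 3 subunits had treated pools clear of the vehicle pools in this genotype.

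Complex III with cytochrome c was uniform in direction. All 8 tested genes were higher with the drug in Fgf21-KO fat, and in all 8 the pools were apart, with differences from 0.14 (Uqcr11) to 0.53 (Cycs). Cycs encodes cytochrome c, the soluble carrier between complexes III and IV. Its levels were 7.08 and 6.995 in the vehicle pools and 7.46 and 7.68 in the treated pools of Fgf21-KO, a difference of 0.53 (SE 0.21, limma adjusted p = 0.8848), or 1.45-fold. Uqcrb, a small subunit of complex III, went from 10.82 and 10.95 to 11.37 and 11.45, a difference of 0.52 (SE 0.25, limma adjusted p = 0.9172). The other members of this group differed less: 0.31 for the hinge protein gene Uqcrh, 0.25 for Cyc1, the cytochrome c1 gene, 0.20 and 0.19 for the core protein genes Uqcrc2 and Uqcrc1, and 0.21 for Uqcr10.

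In complex IV, 15 of 16 tested genes were higher with the drug in Fgf21-KO fat, and 11 had pools apart. Cox6b1, the widely expressed form of a subunit that faces the intermembrane space, gave the smallest p of the complex. Its treated pools, at 14.58 and 14.60, were above its vehicle pools at 14.22 and 14.21. The difference was 0.38 (SE 0.13, limma adjusted p = 0.8659), or 1.30-fold. Cox7a2 differed by 0.34 (SE 0.16) and Cox7c by 0.29 (SE 0.14). One gene ran the other way with its pools apart (22.8% of all genes had pools apart as lower). Cox4i2, known as the lung isoform of subunit 4, was at 6.26 and 5.79 with vehicle and 5.39 and 5.67 with the drug, a difference of -0.49 (SE 0.24, limma adjusted p = 0.9275). Its probe was dim there, with detection on 4 of 4 vehicle arrays and 1 of 4 treated ones.

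In complex V, 15 of 15 tested genes were above 0 in Fgf21-KO, 10 of them with pools apart. Atp5o, which encodes the stalk protein that confers oligomycin sensitivity, had the smallest p of all members. It was at 9.46 and 9.47 in the vehicle pools and 10.02 and 10.04 in the treated ones, so the gap between groups far exceeded the spread within them. The difference was 0.56 (SE 0.15, limma adjusted p = 0.8114), or 1.48-fold. Atp5g2, 1 of 3 genes for the proton-carrying subunit c, differed by 0.45 (SE 0.18, limma adjusted p = 0.8848). Atp5a1, the catalytic head's alpha subunit, differed by 0.53 (SE 0.23), with treated pools at 9.43 and 10.07 and vehicle pools at 9.33 and 9.10. At the other end, the head subunit genes Atp5c1 and Atp5b stood at 0.01 and 0.03, and Atp5g1 and Atp5g3, the other subunit c genes, at 0.04 and 0.03.

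**Figure D2:**
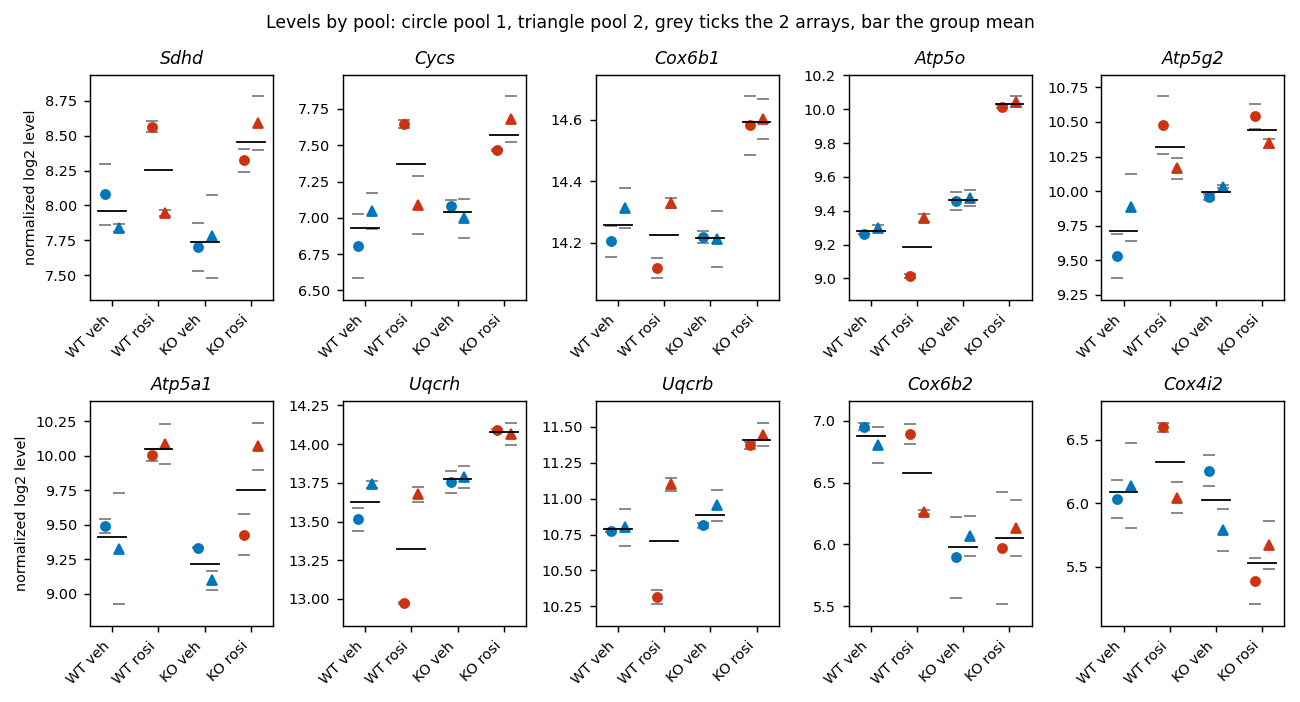
Normalised log2 level (vertical axes, each gene on its own scale) of 10 members in the 4 groups; circles and triangles are the 2 pools, grey ticks their arrays and bars group means. In Fgf21-KO the treated pools (red) sit above the vehicle pools (blue) for Sdhd, Cycs, Cox6b1, Atp5o, Atp5g2, Atp5a1, Uqcrh and Uqcrb, and in WT the first treated pool is low for Uqcrh, Uqcrb and Atp5o.

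Compared with each other, the complexes gave similar medians in Fgf21-KO: 0.29 for complex II, 0.23 for complex III with cytochrome c, 0.18 for complex IV and 0.20 for complex V. Their ranges overlapped, from 0.16 to 0.72, 0.14 to 0.53, -0.49 to 0.38 and 0.01 to 0.56 in the same order, so no complex was separated from another by its values. The median over all members rested on no single pool. It lay between 0.18 and 0.23 when each pool was left out in turn, with 36 to 41 members higher. Without the liver-marked vehicle pool it was 0.23 (39 of 42 higher). Scaling to the array median, in place of quantile normalisation, put the members at 0.12 (36 of 42 higher) and all genes at -0.09, so that the members stood 0.21 above all genes under either scaling.

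**Figure D3:**
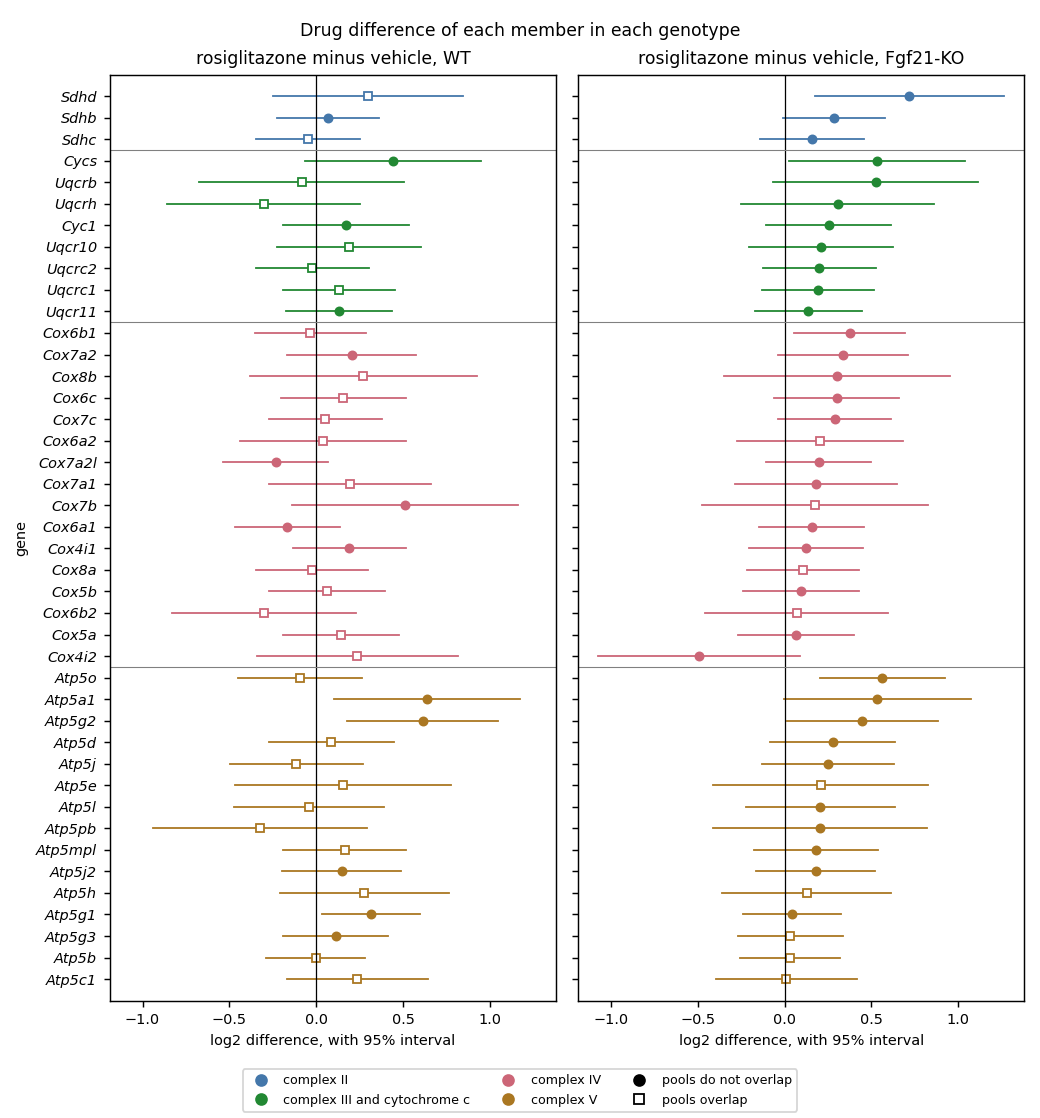
Difference between rosiglitazone and vehicle (log2, horizontal axes) with its 95% interval for each of the 42 members in WT (left) and Fgf21-KO (right); filled circles mark genes whose 2 treated pools lie clear of the 2 vehicle pools. In Fgf21-KO all points but Cox4i2 are right of 0 and 5 intervals exclude 0; in WT the points scatter on both sides, with 28 of 42 above 0 and 3 intervals that exclude it.

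The same question was asked in WT fat. There 28 of 42 members were higher with rosiglitazone, beside 55.5% of all genes tested, and the median was 0.13 against 0.03 for all genes. Pools were apart and higher for 12 members (18.7% of all genes) and apart and lower for 2 (15.6% of all genes), Cox6a1 and Cox7a2l. Again 0 of 42 passed limma's adjusted p of 0.05, as did 0% of all probes, and 3 had an unadjusted p under 0.05 as higher (4.72% of all genes) and 0 as lower (2.94%). These 3 were all of the ATP synthase. Atp5g2 went from 9.53 and 9.89 with vehicle to 10.48 and 10.17 with the drug, a difference of 0.61 (SE 0.18, limma adjusted p = 0.561). Atp5a1 went from 9.49 and 9.33 to 10.01 and 10.09, a difference of 0.64 (SE 0.23, limma adjusted p = 0.5711). Atp5g1 differed by 0.31 (SE 0.12, limma adjusted p = 0.5711). Treated and vehicle pools did not overlap in any of the 3.

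By complex the WT medians were 0.07 for complex II, 0.13 for complex III with cytochrome c, 0.10 for complex IV and 0.15 for complex V. In complex II, Sdhd differed by 0.30 (SE 0.23), Sdhb by 0.07 (SE 0.12) and Sdhc by -0.05 (SE 0.12). In complex III, Cycs was at 0.44 (SE 0.21) with pools apart, while Uqcrh stood at -0.30 (SE 0.23) and Uqcrb at -0.08 (SE 0.25) with overlapping pools. Complex IV ran from Cox7b at 0.51 (SE 0.27) to Cox6b2 at -0.30 (SE 0.22), and complex V from Atp5a1 down to Atp5pb, which encodes the stator subunit b, at -0.32 (SE 0.26).

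The WT values rested on a pair of treated pools that differed between themselves. The 2 pools were more than 0.5 apart (log2) for 10 of 42 members, or 23.8%, where 28.9% of all genes were. In WT vehicle and in Fgf21-KO vehicle 0 members were that far apart (7.74% and 6.45% of all genes), and in Fgf21-KO rosiglitazone 3 were, Cox7b, Atp5a1 and Atp5e (7.23% of all genes). The median member stood 0.18 above its mean over pools in replicate 1 (29 of 42 above) and at -0.02 in replicate 2 (19 of 42 above). Of the 10 members that differed most, 7 were higher in replicate 1, Sdhd, Cycs, Cox4i2, Cox6b2, Cox8b, Atp5e and Atp5h, and 3 lower, Uqcrb, Uqcrh and Atp5pb. Uqcrh was at 12.97 in replicate 1 and 13.68 in replicate 2, and the 2 arrays of replicate 1, at 12.98 and 12.97, gave the same low value. Cox8b, a form of subunit 8 known from heart, muscle and brown fat, was at 11.50 and 10.62.

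Leaving out 1 of these pools changed the WT picture. Without WT rosiglitazone replicate 1 the median was 0.03, with 26 of 42 members higher. Without replicate 2 it was 0.21, with 30 higher, and 6 of 42 members passed limma's adjusted p of 0.05, where 19.6% of all probes did, the lone pool being taken to vary like the other groups: Cycs, Cox8b, Atp5g2 and Atp5h as higher and Uqcrh and Atp5pb as lower. Markers of other tissues moved with this pool. Besides the smooth muscle and epithelial markers, the 3 tested testis germ cell markers had a median of 2.19 there, the 7 tested thermogenic adipocyte markers 0.73 and the 9 tested skeletal and heart muscle markers 0.29, while the 11 tested white adipocyte markers were at -0.06. The part of these cell types in the members' values was not tested, and fewer cells of a type cannot be told apart from less RNA per cell in such samples.

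**Figure D4:**
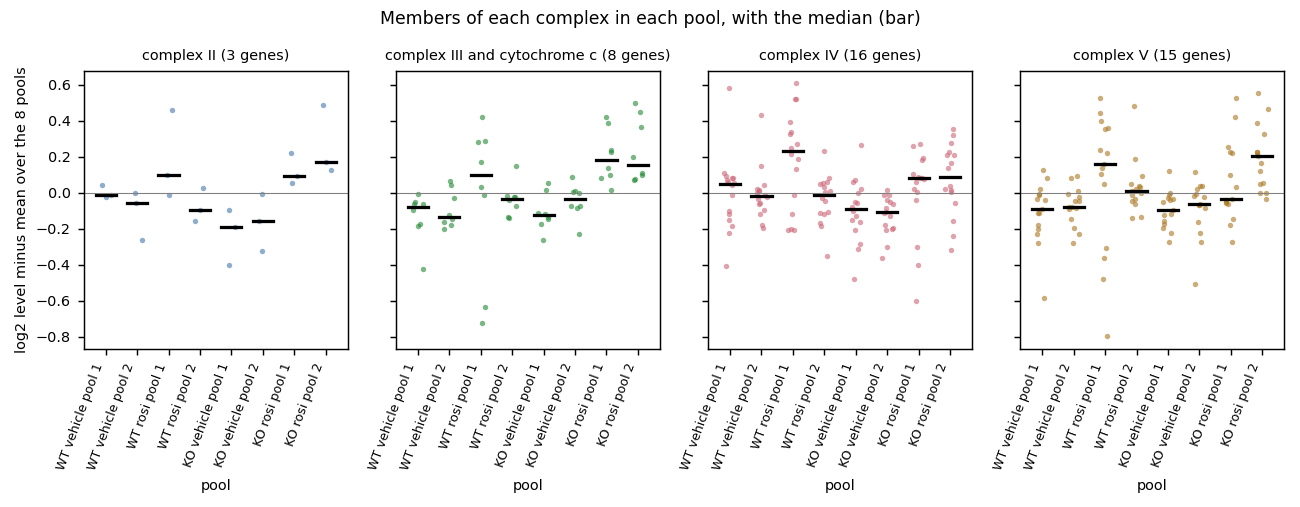
Members of each complex (points, 3, 8, 16 and 15 genes) in each pool, as log2 level minus the mean over the 8 pools (vertical axis), with the median as a bar. The bars of both Fgf21-KO rosiglitazone pools lie above those of both Fgf21-KO vehicle pools in all 4 panels. WT rosiglitazone pool 1 has medians of 0.10 to 0.23 and pool 2 of -0.10 to 0.01.

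Both genotypes were then read side by side. A drug difference above 0 in both was found for 27 of 42 members, where 28.8% of all genes had one. Pools were apart and higher in both genotypes for 10 members, against 5.37% of all genes, and apart and lower in both for 0 (4.61%). The 10 were Sdhb, Cyc1, Cycs, Uqcr11, Cox4i1, Cox7a2, Atp5a1, Atp5g1, Atp5g2 and Atp5j2. Every complex had at least 1 gene in this group. Averaged over genotypes, 37 of 42 members were above 0 (52% of all genes), with a median of 0.17, and 5 had an unadjusted p under 0.05 as higher (4.8% of all genes) and 0 as lower (3.78%). The 5 were Atp5a1 at 0.58 (SE 0.16), Atp5g2 at 0.53 (SE 0.13), Sdhd at 0.51 (SE 0.16), Cycs at 0.49 (SE 0.15) and Cox7a2 at 0.27 (SE 0.11). Their limma adjusted p-values lay between 0.5013 and 0.5611, so 0 of 42 passed.

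Whether the response differed between genotypes was tested by the interaction, the Fgf21-KO difference minus the WT difference. It was above 0 for 31 of 42 members (44.3% of all genes), with a median of 0.09, and 0 of 42 passed. An unadjusted p under 0.05 was found for 2, where 1.9% of all genes had one above 0, and for 0 members below 0 (2.89%). Atp5o had an interaction of 0.66 and Cox7a2l, which links complexes III and IV into supercomplexes, one of 0.43 (SE 0.18), both with limma adjusted p = 0.8268. In WT, Atp5o went from 9.26 and 9.30 with vehicle to 9.01 and 9.36 with the drug, a difference of -0.09 (SE 0.15), so the treated WT pools enclosed the vehicle pools while the treated Fgf21-KO pools lay above theirs. Next in order were Cox6b1 at 0.41 (SE 0.19), Cox4i2 at -0.73 (SE 0.34), Uqcrh at 0.61 (SE 0.33) and Cox6a1 at 0.32 (SE 0.18). The interaction depended on the WT treated pools. Its median was 0.22 without WT rosiglitazone replicate 1 and -0.01 without replicate 2, when 4 of 42 members, Uqcrb, Uqcrh, Atp5o and Atp5pb, passed limma's adjusted p of 0.05, as did 12.4% of all probes. With median scaling the median turned to -0.02, with all genes at -0.15.

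Under vehicle, the genotypes were compared without the drug. A batch or strain difference that goes with genotype cannot be told apart from the loss of Fgf21 here. Here 20 of 42 members were higher in Fgf21-KO (48.4% of all genes) and the median was -0.03. With median scaling 9 of 42 were higher (34.4% of all genes) and the median was -0.08, the same as over all genes. In the reported fit 0 of 42 passed limma's adjusted p of 0.05 (0% of all probes). Complex II was at -0.17, complex III with cytochrome c at 0.06, complex IV at -0.05 and complex V at 0.02. Pools were apart for 8 members as higher (19.7% of all genes) and 13 as lower (23.1% of all genes). The member with the smallest p, and the only one of 42 with an unadjusted p under 0.05 (2.56% of all genes as lower, 2.11% as higher), was Cox6b2, known as the testis isoform of subunit 6b. It stood at 6.95 and 6.80 in WT vehicle and 5.90 and 6.07 in Fgf21-KO vehicle, a difference of -0.90 (SE 0.22, limma adjusted p = 0.7275). Its probe was dim, with signals of 147 to 270 and detection on 14 of 16 arrays. A second Cox6b2 probe was detected on 1 of 16. Testis germ cell markers differed by a median of -0.07 over 3 genes in the same contrast, and their part was not tested. Next came Cox6c at -0.29 (SE 0.15), Atp5d, the delta subunit gene, at -0.26 (SE 0.15) and Atp5g2 at 0.29 (SE 0.18).

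Under rosiglitazone the genotypes differed by a median of 0.03, with 22 of 42 members higher in Fgf21-KO (44.2% of all genes). Scaling to the array median turned this to -0.14 with 12 of 42 higher, and put all genes at -0.22 (28.1% higher). Here 7 members were higher with an unadjusted p under 0.05 (6.52% of all genes) and 1 was lower (9.3%), though 0 of 42 passed after adjustment (0% of all probes). Atp5o, at 10.02 and 10.04 in Fgf21-KO against 9.01 and 9.36 in WT, had the largest difference, 0.84 (SE 0.15, limma adjusted p = 0.1301). It was followed by Uqcrh at 0.75 (SE 0.23, limma adjusted p = 0.2446), Uqcrb at 0.70 (SE 0.25) and Atp5pb at 0.70 (SE 0.26), all 3 low in WT rosiglitazone replicate 1. Atp5j, Cox7a2l and Cox6b1 stood at 0.38 (SE 0.16), 0.37 (SE 0.13) and 0.37 (SE 0.13). In the other direction were Cox4i2 at -0.79 (SE 0.24, limma adjusted p = 0.2431) and Cox6b2 at -0.52 (SE 0.22). Markers of some other cells were lower in the same contrast. Medians were -1.37 over 3 testis germ cell markers (3 lower), -1.65 over 7 of epididymis and epithelium (7 lower) and -1.19 over 9 of smooth muscle (8 lower). They were -1.03 over 6 of mast cells (6 lower) and -0.67 over 8 of mesothelium (7 lower). Endothelial markers had a median of 0.38 (4 of 7 higher) and those of macrophages 0.11 (3 of 6 higher). Mast cell markers were high in both treated WT pools, at 0.92 and 0.67. The part of these cells in the members' values was not tested. By complex the medians were 0.16 for complex II, 0.15 for complex III with cytochrome c, -0.02 for complex IV and -0.06 for complex V, with ranges that overlapped.

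These genotype values also moved with 1 pool. Without WT rosiglitazone replicate 1 the median under rosiglitazone was 0.15 with 33 of 42 higher. Without replicate 2 it was -0.09 with 16 higher, and 9 of 42 members passed limma's adjusted p of 0.05, where 24.6% of all probes did: Uqcrb, Uqcrh, Cox6b1, Atp5l, Atp5o and Atp5pb as higher, and Cox4i2, Cox6b2 and Atp5h as lower. With the 16 arrays as separate observations and the pool as a random block, 3 of 42 members passed, Uqcrb, Uqcrh and Atp5o, as did 4.84% of all probes. Averaged over treatments, 21 of 42 members were higher in Fgf21-KO (45.9% of all genes) and 0 of 42 passed (0.0218% of all probes, 0.0105% of all genes). An unadjusted p under 0.05 was found for 3 as higher (5.66% of all genes) and 2 as lower (8.85%), and pools were apart for 5 as higher (7.07%) and 2 as lower (9.95%). Atp5o differed by 0.52 (limma adjusted p = 0.1527) and Cox6b2 by -0.71 (SE 0.16, limma adjusted p = 0.1541). For Cox6b2 all 4 Fgf21-KO pools, between 5.90 and 6.13, lay below all 4 WT pools, between 6.26 and 6.95. Its dim probe was detected on 4 of 4 arrays of each WT group and 3 of 4 of each Fgf21-KO group. Mean bead numbers per probe were 36.0 to 38.9 on WT arrays and 39.4 to 40.7 on Fgf21-KO arrays, and since the labels give no chip or run, a batch that goes with this cannot be told apart from genotype.

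Several subunits have isoforms from separate genes, and these were set side by side as drug differences, Fgf21-KO first and WT second. For subunit 4, the common form Cox4i1 had 0.12 and 0.19, and Cox4i2 had -0.49 and 0.24. For subunit 6a, the common Cox6a1 had 0.16 and -0.17, and Cox6a2, known from heart and skeletal muscle and detected on 11 of 16 arrays, had 0.21 and 0.04. Subunit 6b gave 0.38 and -0.04 for Cox6b1 and 0.07 and -0.30 for Cox6b2. For subunit 7a, Cox7a1, a form of muscle and brown fat, had 0.18 and 0.19, Cox7a2 had 0.34 and 0.20, and the related Cox7a2l had 0.20 and -0.23. Subunit 8 gave 0.11 and -0.03 for Cox8a and 0.30 and 0.27 for Cox8b. The 3 genes of ATP synthase subunit c gave 0.04 and 0.31 for Atp5g1, 0.45 and 0.61 for Atp5g2, and 0.03 and 0.11 for Atp5g3. The common and the tissue-restricted forms thus held no fixed order, and the SEs of 0.12 to 0.27 exceeded many of the gaps between them.

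More than 1 probe was tested for 6 members. The second probe gave like values in Fgf21-KO for Sdhb (0.35 beside 0.29), Uqcr10 (0.25 beside 0.21), Cox6a1 (0.12 beside 0.16), Cox6b1 (0.27 beside 0.38) and Cycs (0.38 beside 0.53). It disagreed for Atp5j, at -0.02 beside 0.25. In WT the second Cox6b1 probe was at -0.41 where the first was at -0.04.

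Genes that work with these complexes were counted in the same fit. Over all genes tested, 49% were higher with the drug in Fgf21-KO and 55.5% in WT. Pools were apart and higher for 22.2% of all genes in Fgf21-KO. Of 32 tested complex I subunits, 32 were higher with the drug in Fgf21-KO, 30 with pools apart, with a median of 0.26, and in WT 25 of 32 were higher with a median of 0.10. Ndufb9 was at 0.77 (SE 0.18) and Ndufb6 at 0.33 in Fgf21-KO, and Ndufb5 at 0.63 (SE 0.19) and Ndufs6 at 0.31 in WT. Assembly factors of complexes II to V were less uniform, with 20 of 27 higher and a median of 0.11 in Fgf21-KO and 15 of 27 and 0.07 in WT. Among them Cox20, a chaperone of complex IV, was at 0.56 (SE 0.13, limma adjusted p = 0.8114) and Cox19 at 0.38 (SE 0.15) in Fgf21-KO. In WT, Bcs1l, which completes complex III, was at 0.39 (SE 0.19) and Hccs, which attaches haem to cytochrome c, at 0.32 (SE 0.14). Of 4 tested subunits and partners outside the symbol rule, such as Ndufa4 and Atpif1, 2 were higher in each genotype. All 11 tested genes of mitochondrial mass, such as outer membrane channels and matrix chaperones, were higher in Fgf21-KO (median 0.18), and 6 of 11 in WT (median 0.05). In Fgf21-KO the chaperone genes Hspd1 and Hspe1 were at 0.42 (SE 0.16) and 0.41 (SE 0.19), and in WT the import receptor gene Tomm22 was at 0.25 (SE 0.16) and the fusion gene Opa1 at -0.78 (SE 0.48). In each of these lists 0 genes passed limma's adjusted p of 0.05.

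Of 12 tested regulators of mitochondrial genes, 7 were higher with the drug in each genotype, with medians of 0.05 and 0.05. The share over all genes, here and for the marker counts below, was 49% in Fgf21-KO and 55.5% in WT. Ppargc1a, the coactivator that drives mitochondrial biogenesis, stood at 0.48 (SE 0.22) in Fgf21-KO and 0.45 (SE 0.22) in WT. Its pools were apart and higher in both genotypes, as were those of 5.37% of all genes. Its probe was dim, with signals of 142 to 211, and no group had it detected on all its arrays. Detection was on 1 vehicle and 3 treated arrays in Fgf21-KO, and on 2 vehicle and 3 treated arrays in WT. Gabpa, an ETS factor that binds promoters of respiratory genes, was at 0.47 (SE 0.27) in Fgf21-KO with overlapping pools, and at -0.07 in WT. Nrf1 was at -0.20 (SE 0.16) in Fgf21-KO and 0.09 in WT, and Tfam at -0.06 (SE 0.17) and 0.05. In WT, Twnk and Polg, the helicase and polymerase of mitochondrial DNA, were at -0.94 (SE 0.18) and -0.44 (SE 0.18). Their interactions were 1.21 (SE 0.26) and 0.52 (SE 0.26), both with limma adjusted p = 0.8268. Of 12 listed thermogenic adipocyte markers, 11 were on the array and 7 were tested. Dio2, Elovl3 and Prdm16 were detected on no array. The tested markers were higher for 6 of 7 in each genotype, with medians of 0.48 in Fgf21-KO and 0.39 in WT. Ucp1, the uncoupling protein of brown fat, was at 0.75 (SE 0.37) and 0.44 (SE 0.37), and Cidea at 0.47 and 0.46 (SE 0.29 each). Slc25a20 was at 0.53 (SE 0.17) in Fgf21-KO and at -0.05 in WT, where it was the lowest of the 7. Acot11 was at 0.72 (SE 0.21) in WT and at -0.26 in Fgf21-KO, where it was the lowest of the 7. By pool, these markers had medians of 0.06 and 0.44 in the treated Fgf21-KO pools and -0.27 and -0.14 in the vehicle pools, where the members were at 0.08 and 0.17 and at -0.12 and -0.07. In WT the markers were at 0.73 and -0.26 with the drug and -0.24 and 0.03 with vehicle, where the members were at 0.18 and -0.02 and at -0.05 and -0.05. WT rosiglitazone replicate 1 was thus the highest WT pool in both sets. The members' medians in the other WT pools, -0.05 to -0.02, differed by less than the SD of 0.08 between pools of that median. White adipocyte markers had drug medians of -0.00 in Fgf21-KO and -0.01 in WT, with 5 of 11 higher in each. Adipoq was at 0.20 and -0.17 (SE 0.12 each), and Retn, the resistin gene, at 0.49 and 0.79 (SE 0.16 each). The part of thermogenic cells in the members' values was not tested.

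The submitters' own statistics were set beside these values. The authors' deposited table lists 9 rows of members, and its group means matched the non-normalised signals (within 0.1% in 99.5% of rows with a gene ID on the array). In that table Atp5a1 was called with the drug in both genotypes, at ratios of 1.63 in WT and 1.38 in Fgf21-KO. The authors' deposited table also called Atp5g2 in WT (1.67), and Atp5o (1.38), Sdhd (1.42) and Uqcrb (1.37) in Fgf21-KO, where it called 1.89% of all probes in WT and 1.2% in Fgf21-KO. For Fgf21-KO over WT under vehicle the authors' deposited table called Atp5d (0.708), Cox6b2 (0.647) and Cox6c (0.691), all below 1, as were 748 of its 829 calls there (3.23% of all probes). The median over all probes of the non-normalised group means was itself 0.832 times as high in Fgf21-KO vehicle as in WT vehicle, and the ratios of that table carry this difference.

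Promoter sequence was read for members with an entry in the RefSeq table of promoters (build GRCm38.p6), which matched 35 of 47 and holds the 300 bases from 250 before to 50 after each gene's start. Shown are the windows of the 5 members with an unadjusted p under 0.05 for the drug in Fgf21-KO. All 5 genes lie on the minus strand: Sdhd at chr9:50603800-50604099, Cycs at chr6:50566520-50566819, Cox6b1 at chr7:30626065-30626364, Atp5g2 at chr15:102670998-102671297 and Atp5o at chr16:91931581-91931880. Capitals mark the letters of the searched motifs, on either strand: an ETS (GABP) motif and an ERR half-site in Sdhd, an NRF-1 motif in Cycs and in Atp5g2, where overlapping matches on both strands are shown as 1 run, and an ETS motif in Cox6b1. Atp5o held none of the 4.
Sdhd: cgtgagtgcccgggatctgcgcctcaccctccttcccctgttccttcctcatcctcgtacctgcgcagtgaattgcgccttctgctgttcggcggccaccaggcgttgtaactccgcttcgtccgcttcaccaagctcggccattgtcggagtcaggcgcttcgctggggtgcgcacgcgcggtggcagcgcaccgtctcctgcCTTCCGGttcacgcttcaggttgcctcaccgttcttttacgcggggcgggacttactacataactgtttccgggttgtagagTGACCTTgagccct
Cycs: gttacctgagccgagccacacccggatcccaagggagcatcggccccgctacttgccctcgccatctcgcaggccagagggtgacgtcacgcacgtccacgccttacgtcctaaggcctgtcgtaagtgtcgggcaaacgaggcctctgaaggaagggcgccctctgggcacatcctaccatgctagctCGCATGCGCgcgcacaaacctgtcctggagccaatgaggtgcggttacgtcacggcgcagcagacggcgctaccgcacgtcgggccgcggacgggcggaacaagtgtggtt
Cox6b1: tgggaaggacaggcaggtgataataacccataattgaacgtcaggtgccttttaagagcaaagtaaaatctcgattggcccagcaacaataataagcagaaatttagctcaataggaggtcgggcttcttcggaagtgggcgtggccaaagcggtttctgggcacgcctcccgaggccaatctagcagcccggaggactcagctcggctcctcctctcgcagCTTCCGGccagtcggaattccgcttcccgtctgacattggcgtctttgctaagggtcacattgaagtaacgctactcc
Atp5g2: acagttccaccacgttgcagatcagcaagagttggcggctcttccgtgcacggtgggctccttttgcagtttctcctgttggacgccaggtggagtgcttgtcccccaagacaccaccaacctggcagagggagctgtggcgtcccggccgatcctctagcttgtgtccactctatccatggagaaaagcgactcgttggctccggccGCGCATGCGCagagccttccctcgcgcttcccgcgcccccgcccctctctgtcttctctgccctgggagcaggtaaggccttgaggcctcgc
Atp5o: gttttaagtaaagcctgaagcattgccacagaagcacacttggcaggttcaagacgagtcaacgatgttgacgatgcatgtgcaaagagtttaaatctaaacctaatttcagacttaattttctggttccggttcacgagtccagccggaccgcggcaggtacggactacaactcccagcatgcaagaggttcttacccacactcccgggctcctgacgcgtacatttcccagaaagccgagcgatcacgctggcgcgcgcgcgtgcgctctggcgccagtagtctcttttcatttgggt

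The motifs searched, on both strands, were NRF-1 (GCGCATGCG), ETS or GABP (CCGGAAG), YY1 (AAGATGG) and the ERR half-site (AAGGTCA), named for factors known to act on respiratory genes. Overlap between motifs was allowed. NRF-1 letters were in 7 of 35 member promoters (20%), against 1.95% of all 27025 genes with a promoter and 3.88% of the 7711 among them that were tested here. ETS letters were in 12 (34.3%, against 9.93% and 19%), YY1 letters in 4 (11.4%, against 7.28% and 8.55%) and the ERR half-site in 5 (14.3%, against 5.38% and 4.24%). At least 1 of the 4 was in 19 of 35 (54.3%, against 22.3% and 31.5%). The member promoters held a median of 56% G and C, those of all genes 52.7% and those of tested genes 60.3%. These are matches of letters, not binding sites, and were set against no response.

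**Figure D5:**
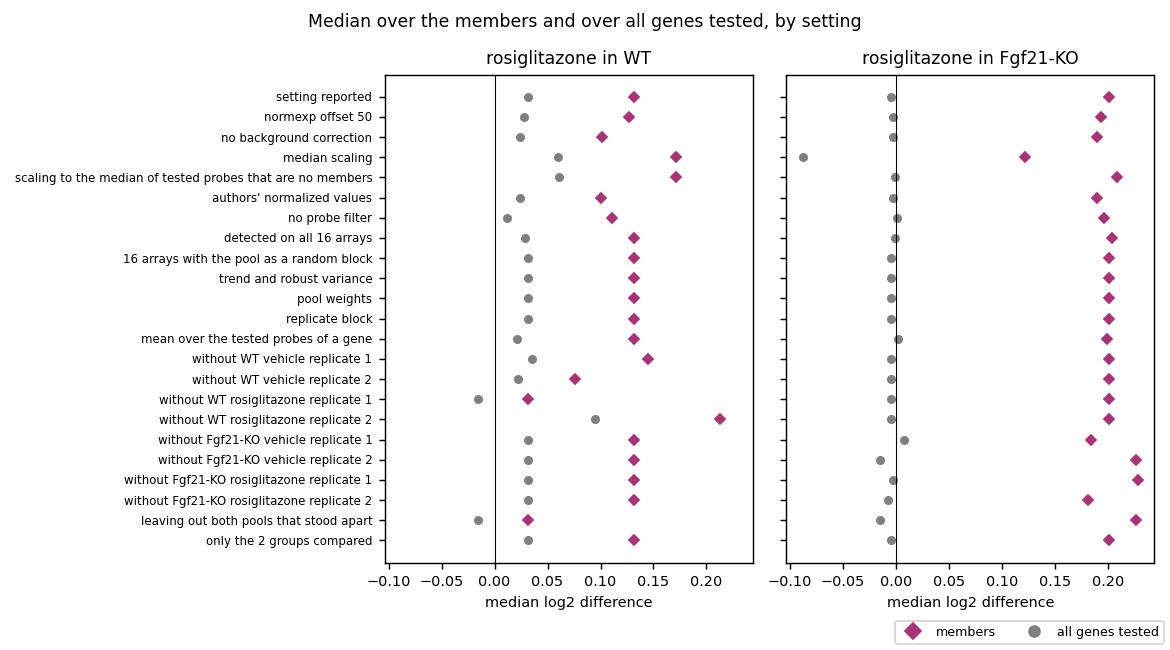
Median drug difference (log2, horizontal axes) over the members (diamonds) and over all genes tested (circles) under the reported setting and each alternative (rows), in WT (left) and Fgf21-KO (right). In Fgf21-KO the diamonds stay between 0.12 and 0.23; in WT they range from 0.03 to 0.21 with the choice of treated pool.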

How the data were processed

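Bead-array intensity values, not normalised, with a detection p-value for each probe and array, were deposited by the authors for 16 arrays, per the file headers. The deposited table of normalised values served as an alternative, and the authors' deposited ratio and p-value table was read only for its own calls. The deposited counts of beads behind each signal were read only as a quality measure, per the file headers. In all, 64 columns were not used. With limma 3.58.1, intensities were background-corrected (normexp on detection p, offset 16), quantile-normalised and put on a log2 scale, and the 2 arrays of a pool were averaged. Probes were kept where 4 or more of the 16 arrays gave a detection p up to 0.05 (13759 probes, 9542 genes by their brightest probe). One model of 4 group means was fitted over all probes, with Benjamini-Hochberg adjustment over all of them. Two-sided p-values measure the spread between pools of different mice. Pools are called apart where both of a group lie above or below both of the other.

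The members and gene lists were chosen with earlier results of these data known. Named with full statistics were, per contrast, the 3 members of smallest unadjusted p in each complex and the 4 largest differences each way (6 of smallest p for the interaction); complex II, the isoform sets, Cycs, Cyc1 and undetected members were always named, and of other lists the 2 genes of smallest p. In simulated data for rosiglitazone in Fgf21-KO (13759 probes), 0 of 66 probes changed by 0.5 (log2) passed the adjusted threshold. Of those changed by 1 and by 2, 16 of 67 and 56 of 67 passed, as did 6 unchanged probes. Each simulated probe had the same spread in all groups. In the data the median SD between pools over all genes was 0.22 in WT rosiglitazone and 0.09 to 0.11 in the other groups. Deviations of same-numbered pools correlated between -0.10 and 0.27. With 1 such deviation per group, this cannot settle whether the numbers pair the pools, and the reported fit did not pair them. Alternatives covered background, scaling, filter, probe choice, variance model, blocks and left-out pools.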

Additional observations from a re-analysis of the deposited data

Results flagged for a closer look

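For 2 members of complex IV, both treated pools lay below both vehicle pools in WT and above them in Fgf21-KO. Cox6a1 had a drug difference of -0.17 in WT and 0.16 in Fgf21-KO, and the difference between them was 0.32 (SE 0.18, limma adjusted p = 0.8268). Cox7a2l had -0.23 and 0.20, and the difference was 0.43 (SE 0.18, limma adjusted p = 0.8268). Neither interaction passed the threshold.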

How the results depend on the processing

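With 2 pools per group, 0 members passed for either drug contrast unless a pool was left out. In WT the drug median was 0.0311 to 0.21 with 1 pool left out (0 to 6 members past the threshold), complex II -0.0140 to 0.10, III 0.0360 to 0.19 and IV -0.0197 to 0.21; without both pools that stood apart they were 0.0311, -0.0140, 0.0360 and -0.0197. In Fgf21-KO, median scaling gave 0.12 over all members, 0.19 for complex II and 0.15 for III; complex III was 0.17 to 0.31 with 1 pool left out and 0.31 without both.

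For genotype under vehicle, median scaling left 9 members above 0, with complex II at -0.27 and III at -0.0197; complex III was -0.0124 to 0.0914 with 1 pool left out and -0.0124 without both. Under rosiglitazone, median scaling gave 12 above 0, a median of -0.14, and -0.0362, -0.0394 and -0.19 for complexes II, III and IV. The random block gave 3 past the threshold (4.84% of all probes). With 1 pool left out the median was -0.0921 to 0.15, 16 to 33 were above 0, 0 to 9 passed, and complexes II to V were 0.0155 to 0.20, 0.0024 to 0.22, -0.18 to 0.0713 and -0.0824 to 0.0682; without both the values were 0.15, with 33 above 0, and 0.22, 0.0713 and 0.0682 for III, IV and V.

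The interaction had 20 above 0 and a median of -0.0243 with median scaling; with 1 pool left out it had -0.0142 to 0.22, 20 to 34 above 0 and 0 to 4 past, and 0.23 without both. The drug averaged over genotypes had 0 to 4 past with 1 pool left out. Genotype averaged over treatments had 11 above 0 and a median of -0.12 with median scaling, 1 past with the random block (Atp5o; 3.89% of all probes) and 0 to 8 with 1 pool left out. The highest of these counts came without WT rosiglitazone replicate 2, when 20% of all probes passed for genotype averaged over treatments and 13.3% for the drug averaged over genotypes. The replicate block left 0 members past the threshold in every contrast. The cause of these shifts was not tested.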
